A study of Danio rerio with 24 samples.

Results

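The vascular and smooth muscle microRNAs (miRNAs) described here are zebrafish miR-126, miR-143, miR-145, miR-221 and miR-222. The guide strand of each was looked up by its exact name, and all 5 were found on both array types. They were 5 of 231 miRNA names (11 of 490 probes) on the Agilent arrays and 5 of 224 names (5 of 255 zebrafish probes) on the Exiqon arrays. The rule used names alone. Whole wildtype TL embryos were exposed for 1 h, starting 30 hours post-fertilization (hpf), to the solvent DMSO or to the dioxin TCDD, which activates the aryl hydrocarbon receptor. Embryos were sampled at 36 hpf, which is 6 h after the start of exposure, or at 60 hpf, which is 30 h after it. That gave 4 groups (DMSO or TCDD at 36 or 60 hpf), each with 3 biological replicates on each array type, so 12 arrays per platform. The sources used here give no TCDD dose. The RNA came from whole embryos, in which fewer cells of a type and less of a miRNA per cell cannot be told apart.

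As background, miR-126 is enriched in endothelial cells, and its zebrafish gene mir126b overlaps egfl7. In zebrafish and mouse miR-126 sustains signalling from vascular growth factors by repressing inhibitors of that pathway, and vessel integrity depends on it. MiR-143 and miR-145 are processed from neighbouring hairpins, and in mouse they mark smooth muscle and favour its contractile state. MiR-221 and miR-222 are a pair of related miRNAs encoded side by side. In human endothelial cells both repress the receptor KIT, and in zebrafish miR-221 is needed for endothelial tip cell behaviour. The files held no messenger RNA, so the labelled tissue could be checked only through miRNAs. Markers of striated muscle, red blood cells, nervous system and epithelium were tested on both platforms, as were those of leukocytes (2 of 6 on Agilent).

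The Agilent probe that represents each name is shown because all Agilent values below were read from it. Each sequence is the probe as deposited, 5′ to 3′, and capitals mark the bases by which it is longer than the shortest probe of the same name.
dre-miR-126: gcattattactcacggtAC
dre-miR-143: gagctacagtgcttC
dre-miR-145: gggattcctgggaaA
dre-miR-221: gaaacccagcagacaatgT
dre-miR-222: gagacccagtagccA
The miR-126 and miR-221 probes had 19 bases each, and the miR-143, miR-145 and miR-222 probes had 15. In the file's annotation (danRer5), the miR-126 probe mapped to chr8:11385667-11385684. The miR-143 probe mapped to chr14:40450069-40450083 and the miR-145 probe to chr14:40451752-40451766, with 1668 bases between them. A second pair of sites lay at chr14:40496750-40496764 and chr14:40498433-40498447, again 1668 bases apart. The file mapped neither the miR-221 nor the miR-222 probe. In the RefSeq gene table (assembly GRCz12tu, used for names and neighbours only), dre-mir-221 and dre-mir-222 were next to each other on chromosome 9, and a separate mir222b lay on chromosome 21. Mir126a, on the chromosome to which the miR-126 probe mapped, overlapped a long noncoding RNA, with pierce1 and fnbp1a as neighbours, and mir126b on chromosome 21 overlapped egfl7.

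The miR-221 and miR-222 probes resemble each other, as the next lines show, with capitals at the bases that differ when both are aligned from their first base.
dre-miR-221: gaAacccagCagAcaatgt
dre-miR-222: gaGacccagTagCca
They shared 12 of 15 aligned bases and differed at 3. A contribution of one miRNA to the other's signal was not tested, so their levels are given side by side and not as independent measurements.

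An Agilent probe was called detected where its spots stood well above background in a share of 0.5 or more, which held for 191 to 277 of 490 probes. The lowest number belonged to replicate 2 of DMSO at 60 hpf, and the next lowest array had 225. On the Exiqon arrays 240 to 255 of 255 probes were detected. Agilent values are log2 of the spot intensity divided by the array's 75th percentile, and 0 is that percentile. Exiqon values are log2 of the sample intensity over that of a reference pool, after loess normalization. Changes are log2 differences ± standard error with n = 3 arrays per group. Adjusted p is from limma's moderated test with Benjamini-Hochberg adjustment over all 134 tested miRNAs on Agilent or all 223 on Exiqon, and a change passed at an adjusted p under 0.05. The number of arrays limits the precision, and standard errors of the TCDD differences had a median of 0.076 on Agilent and 0.044 to 0.045 on Exiqon.

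Among the tested members miR-143 differed most between the stages on both platforms. On Agilent its 36 hpf values lay at or near the floor, and it was tested only through its highest group, TCDD at 60 hpf. Its Exiqon value stood 2.45-fold higher at 60 than at 36 hpf in DMSO embryos and 2.63-fold higher in TCDD embryos. The image names of the Exiqon DMSO arrays of 36 hpf carry a code of their own, read here as a scan. Scan and stage thus cannot be told apart in DMSO. MiR-221 and miR-222 were lower at 60 hpf on Agilent, and on Exiqon miR-222 was slightly lower. MiR-126 passed between stages only in TCDD embryos on Exiqon, by 1.09-fold, and miR-145 was too dim for Agilent and near background on Exiqon. TCDD changed none of the members past the threshold at either stage on either platform.

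**Figure D1:**
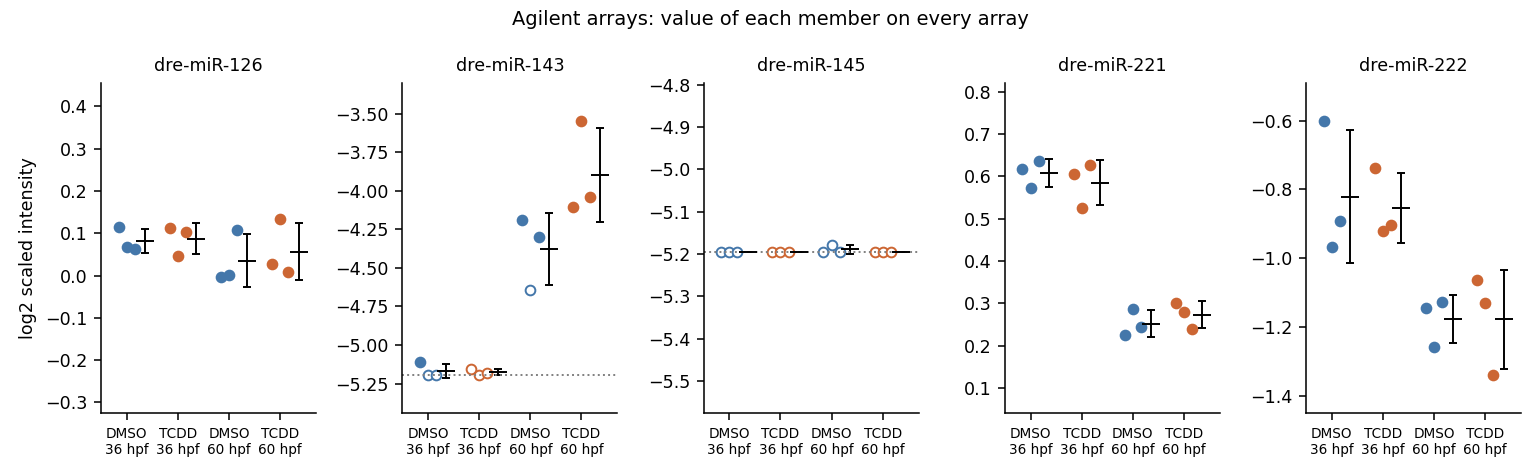
Log2 scaled intensity (y axis) of the probe representing each member on the 12 Agilent arrays, by group. The value 0 is the array's 75th percentile over the probes that all 12 arrays detected. Points are arrays (filled when the probe was detected on that array), bars are the mean and SD of 3 arrays, and the dotted line is the floor of -5.19; miR-143 rises off the floor at 60 hpf, miR-145 stays on it, and miR-221 and miR-222 sit lower at 60 hpf.

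MiR-126, the endothelial member, was detected on every array of both platforms. On the Agilent arrays its log2 level was 0.11, 0.067 and 0.062 in DMSO at 36 hpf and 0.11, 0.046 and 0.10 in TCDD at 36 hpf. At 60 hpf it was -0.0035, 0.0015 and 0.11 in DMSO and 0.027, 0.13 and 0.0089 in TCDD. The 4 groups overlapped throughout. The order of the group means was TCDD at 36 hpf (0.087), DMSO at 36 hpf (0.081), TCDD at 60 hpf (0.056) and DMSO at 60 hpf (0.035), and the arrays of neighbours in that order overlapped. From 36 to 60 hpf it differed by -0.046 ± 0.052 in DMSO (adjusted p = 0.434) and by -0.031 ± 0.052 in TCDD (adjusted p = 0.596). Its other 2 probes, of 17 and 18 bases, gave -3.52 to -3.06 and -2.33 to -1.93 over the 12 arrays, and neither passed in any comparison.

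On the Exiqon arrays the log2 ratio of miR-126 was -0.089, -0.097 and -0.085 in DMSO at 36 hpf and -0.097, -0.14 and -0.035 in TCDD at 36 hpf. The 60 hpf values were -0.042, -0.044 and 0.00054 in DMSO and 0.012, 0.028 and 0.054 in TCDD. The TCDD arrays at 60 hpf lay above all others. The means ran from TCDD at 60 hpf (0.031) through DMSO at 60 hpf (-0.029) and DMSO at 36 hpf (-0.090) to TCDD at 36 hpf (-0.091), and no neighbours passed the test. The change with stage was 0.062 ± 0.033 in DMSO (adjusted p = 0.120) and 0.12 ± 0.03 in TCDD (1.09-fold, adjusted p = 0.00498), so only the TCDD series passed, and the difference between these changes did not pass (0.061 ± 0.046, adjusted p = 0.549). The rise in TCDD embryos did not pass in the authors' deposited table of log ratios (0.063, adjusted p = 0.164). It turned to a fall with the sample channel alone, quantile-normalized between arrays (-0.41, adjusted p = 0.0164). Before that normalization the TCDD sample channel lay at 9.66 to 9.90 at 36 hpf and at 10.27 to 10.72 at 60 hpf (log2 intensity). With median centring the rise in TCDD was larger, at 0.68 (adjusted p = 0.000161), and the DMSO change was then 0.47 and passed (adjusted p = 0.00384). The passenger strand miR-126* was dim. Its Exiqon changes lay between -0.061 and 0.11 in the treatment and stage comparisons with none past the threshold, and on Agilent it was not tested. The change with stage in DMSO (0.11 ± 0.06, adjusted p = 0.167) passed over the first image analysis day alone (adjusted p = 0.0363) and with spots flagged as empty also left out (adjusted p = 0.0339).

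MiR-143, a smooth muscle miRNA in mouse, was at the limit of detection on Agilent at 36 hpf. Its log2 level was -5.11, -5.19 and -5.19 in DMSO and -5.16, -5.19 and -5.18 in TCDD, against a floor of -5.19. It was detected on 1 of 3 DMSO arrays and on 0 of 3 TCDD arrays. At 60 hpf the levels were -4.19, -4.64 and -4.30 in DMSO and -4.10, -3.55 and -4.04 in TCDD. Every array of 60 hpf lay above every array of 36 hpf, with detection on 2 of 3 DMSO arrays and on 3 of 3 TCDD arrays.

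The Agilent stage change of miR-143 was 0.79 ± 0.14 in DMSO (adjusted p = 0.000277) and 1.28 ± 0.14 in TCDD (adjusted p = 4.21e-06). The probe entered the test only through its highest group, TCDD at 60 hpf, the group with detection on all 3 arrays, so these tests are not independent of the filter. With no filter on dim probes the same changes had adjusted p of 0.00242 and 0.000106. Because the probe was not detected on any TCDD array of 36 hpf, the latter is given as at least 2.35-fold higher, against each array's lowest signal above background. In DMSO the size depended on the floor, and was 1.26 with the floor lowered to 0.5 of its level, 0.48 after quantile normalization and 0.37 after normexp background correction with quantile normalization. Its shorter probe, of 14 bases, was detected on no array.

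Exiqon placed the same miRNA well within its range. Its log2 ratio was -0.92, -0.94 and -0.89 in DMSO at 36 hpf and -1.01, -0.96 and -0.87 in TCDD at 36 hpf. At 60 hpf it was 0.37, 0.33 and 0.43 in DMSO and 0.51, 0.33 and 0.49 in TCDD. The stages were separated by more than the spread of any group, and DMSO and TCDD overlapped within each stage. The rise was 1.30 ± 0.05 in DMSO (2.45-fold, adjusted p = 6.51e-11) and 1.39 ± 0.05 in TCDD (2.63-fold, adjusted p = 3.26e-11). Before normalization the sample channel moved from 7.97 to 8.09 in DMSO at 36 hpf to 9.25 to 9.67 at 60 hpf (log2 intensity). The reference channel spanned 8.82 to 9.43 over both groups.

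**Figure D2:**
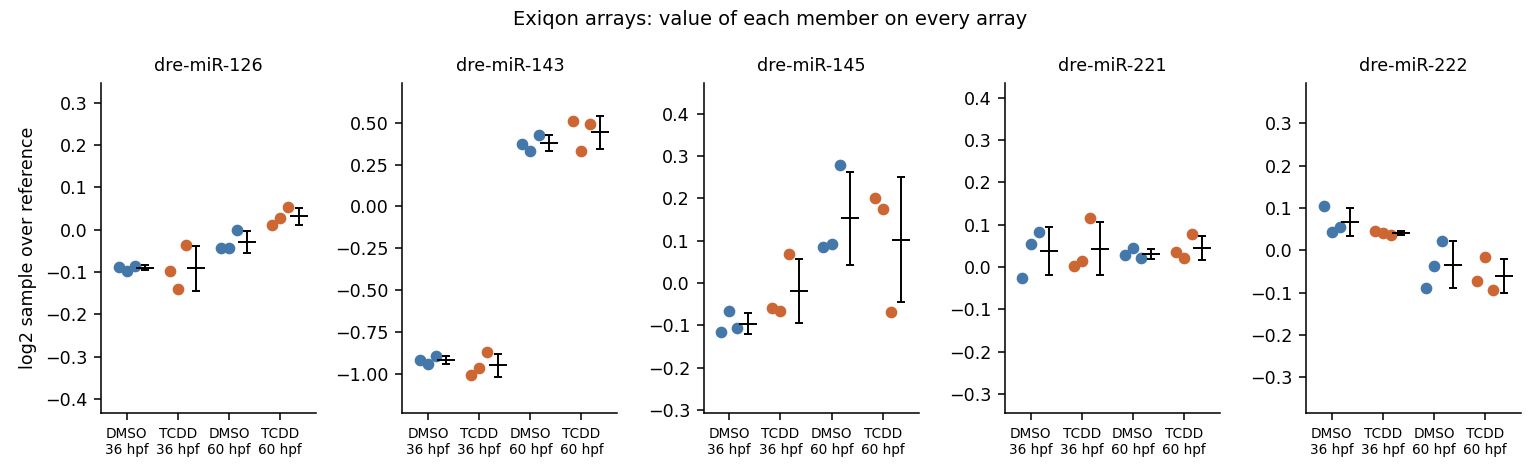
Log2 ratio of sample over reference (y axis, each panel with its own range) for each member on the 12 Exiqon arrays, by group, with the mean and SD of 3 arrays. MiR-143 lies between -1.01 and -0.87 at 36 hpf and between 0.33 and 0.51 at 60 hpf, while the other members stay within -0.14 and 0.28.

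MiR-145, the partner of miR-143, was not well above background on any Agilent array with either probe, of 14 or 15 bases. The median processed signal of the 15-base probe was between -23.1 and 67.3, which is around 0 after background subtraction. It was therefore not tested on Agilent, and no fold is given. At 36 hpf its Exiqon log2 ratio was -0.11, -0.067 and -0.11 in DMSO and -0.060, -0.066 and 0.069 in TCDD. The 60 hpf values were 0.086, 0.093 and 0.28 in DMSO and 0.20, 0.18 and -0.068 in TCDD. The last of these arrays, replicate 3 of TCDD at 60 hpf, stood with the 36 hpf arrays, and the program flagged 2 of its 4 spots as empty. The sample signal of this probe was low on all arrays, between 34.3 and 61.8 after background subtraction.

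On Exiqon miR-145 was higher at 60 than at 36 hpf in DMSO by 0.25 ± 0.07 (1.19-fold, adjusted p = 0.00842), with no overlap between the arrays. In TCDD the change was 0.12 ± 0.07 and did not pass (adjusted p = 0.161). With spots flagged as empty also left out, the TCDD change was 0.29 and passed (adjusted p = 0.00194), and without replicate 3 of TCDD at 60 hpf it was 0.21 (adjusted p = 0.00949). In the authors' deposited table of log ratios the change was 0.73 in TCDD (adjusted p = 0.00197) and 0.48 in DMSO (adjusted p = 0.0226), and over the first image analysis day alone the TCDD change was 0.24 (adjusted p = 0.0172). The DMSO call was lost with median centring (0.092, adjusted p = 0.426) and with the sample channel alone (0.16, adjusted p = 0.200). A difference between the stage changes in DMSO and TCDD was not shown (-0.13 ± 0.10, adjusted p = 0.571), and in the deposited table it had the opposite sign (0.25, adjusted p = 0.675).

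MiR-221, the zebrafish tip cell regulator, was detected on every array with its representing probe. Its log2 level was 0.62, 0.57 and 0.64 in DMSO at 36 hpf and 0.61, 0.52 and 0.63 in TCDD at 36 hpf. At 60 hpf it was 0.23, 0.29 and 0.24 in DMSO and 0.30, 0.28 and 0.24 in TCDD. The stages did not overlap, and the treatments did within each stage. It fell by 0.36 ± 0.05 on the log2 scale in DMSO (adjusted p = 2.27e-05) and by 0.31 ± 0.05 in TCDD (adjusted p = 6.64e-05). Its 18-base probe gave changes of -0.38 (adjusted p = 0.00228) and -0.26 (adjusted p = 0.0174).

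MiR-222 had a similar course on Agilent. Its log2 level was -0.60, -0.97 and -0.89 in DMSO at 36 hpf and -0.74, -0.92 and -0.90 in TCDD at 36 hpf. The 60 hpf values were -1.15, -1.26 and -1.13 in DMSO and -1.06, -1.13 and -1.34 in TCDD. All arrays of 60 hpf lay below all arrays of 36 hpf. The change was -0.36 ± 0.10 in DMSO (adjusted p = 0.00663) and -0.32 ± 0.10 in TCDD (adjusted p = 0.0112), and the latter was no longer past the threshold without replicate 3 of TCDD at 60 hpf (-0.24, adjusted p = 0.0525). The 14-base probe gave -0.22 ± 0.11 in both, and did not pass (adjusted p = 0.0868 and 0.0917).

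On Exiqon the loess-normalized ratio of miR-221 did not pass between stages. Its log2 ratio was -0.026, 0.055 and 0.082 in DMSO at 36 hpf and 0.027, 0.044 and 0.022 in DMSO at 60 hpf. In TCDD it was 0.0017, 0.013 and 0.11 at 36 hpf and 0.036, 0.022 and 0.077 at 60 hpf. All 4 groups overlapped, and the stage change was -0.0060 ± 0.0389 in DMSO (95% interval -0.091 to 0.079, adjusted p = 0.892) and 0.0018 ± 0.0389 in TCDD (adjusted p = 0.972). With median centring miR-221 passed as higher at 60 hpf, by 0.29 in DMSO (adjusted p = 0.0162) and by 0.38 in TCDD (adjusted p = 0.00228). With the sample channel alone the TCDD change was -0.48 and did not pass (adjusted p = 0.0576).

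For miR-222 the Exiqon log2 ratio was 0.10, 0.042 and 0.054 in DMSO at 36 hpf and 0.045, 0.040 and 0.037 in TCDD at 36 hpf. At 60 hpf it was -0.089, -0.037 and 0.023 in DMSO and -0.073, -0.015 and -0.094 in TCDD. The stages did not overlap within either treatment. The ratio fell by 0.10 ± 0.04 in DMSO (1.07-fold, adjusted p = 0.0256) and by 0.10 ± 0.04 in TCDD (adjusted p = 0.0249). With median centring the fall turned to a rise of 0.29 in DMSO and of 0.43 in TCDD. The DMSO call was lost with the sample channel alone (-0.38, adjusted p = 0.0792), without replicate 1 of DMSO at 36 hpf (adjusted p = 0.103) or replicate 1 or 2 of DMSO at 60 hpf (adjusted p = 0.111 and 0.0618). The TCDD call was lost without replicate 1 or 2 of TCDD at 36 hpf (adjusted p = 0.0630 and 0.0580), without replicate 1 or 3 of TCDD at 60 hpf (adjusted p = 0.0596 and 0.0827) and over the first image analysis day alone (-0.058, adjusted p = 0.332).

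**Figure D3:**
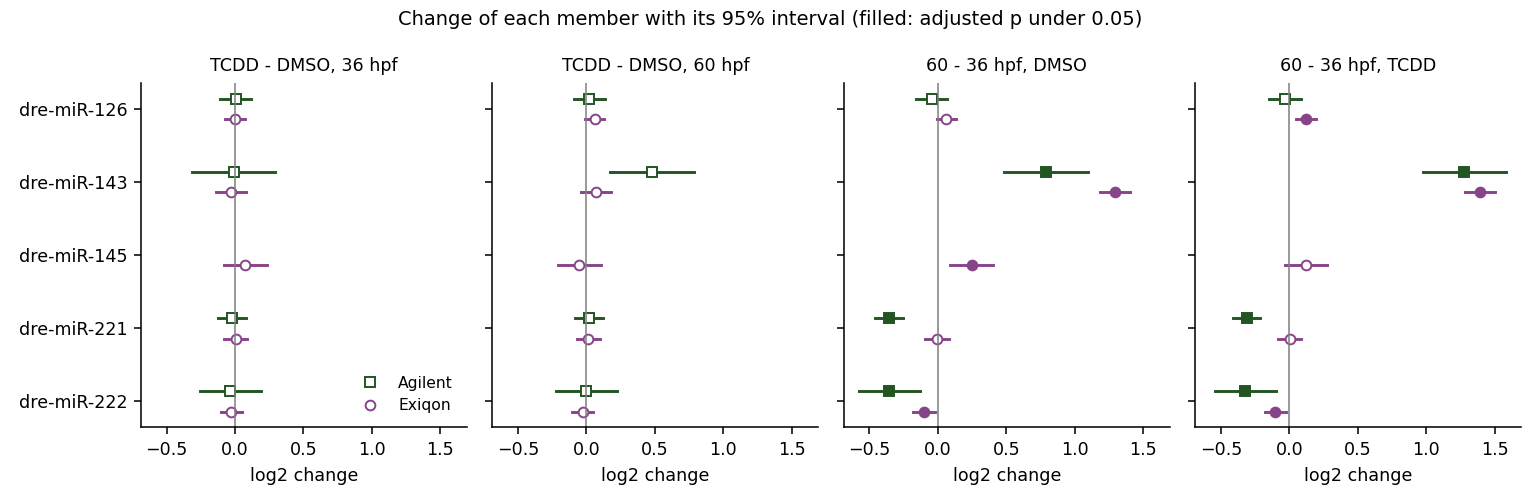
Log2 change of each member (x axis) with its 95% interval in 4 comparisons, on Agilent (squares) and Exiqon (circles); filled symbols have an adjusted p under 0.05, and miR-145 has no Agilent value. No symbol is filled in the treatment comparisons, and miR-143 lies farthest from 0 in the stage comparisons, between 0.79 and 1.39.

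Counted over the members, 1 rose (miR-143, tested only through its highest group) and 2 fell of the 4 tested on Agilent between 36 and 60 hpf in DMSO, and the counts in TCDD were the same. Between stages 78.4% of all tested miRNAs passed on Agilent in DMSO (45.5% higher and 32.8% lower) and 81.3% in TCDD (50% and 31.3%), so 3 of 4 is near the background. On Exiqon 2 rose and 1 fell of 5 in each treatment, where 64.1% of all tested passed in DMSO (48% higher and 16.1% lower) and 65% in TCDD (48.4% and 16.6%). Arrays of the stages did not overlap for 3 of 4 members on Agilent in each treatment, and for 4 of 5 in DMSO and 3 of 5 in TCDD on Exiqon. The same held for 78.4% (DMSO) and 84.3% (TCDD) of all tested miRNAs on Agilent and for 74.4% and 65% on Exiqon. The members that rose in DMSO were miR-143 and miR-145, and those in TCDD were miR-126 and miR-143. The median stage change of the tested members in DMSO was -0.20 on Agilent and 0.062 on Exiqon, beside 0.10 and 0.12 over all tested miRNAs.

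The direction of the stage changes of miR-126, miR-221 and miR-222 rested on the scaling, which sets where 0 lies. MiR-143 kept its sign in all 20 alternatives in each treatment on Agilent, and in all 16 (DMSO) and 17 (TCDD) on Exiqon. On Agilent its 36 hpf values lay at or near the floor, so its sign there had little room to turn. It was tested there only through its highest group, TCDD at 60 hpf. MiR-145 on Exiqon kept its sign in 16 of 16 in DMSO and in 16 of 17 in TCDD. Many alternatives only leave out single arrays, and on Agilent the blocks and the deposited values leave each change as it was. Their number is therefore not a number of separate checks. On Agilent the 75th percentile used for scaling was 5496 to 7730 in DMSO at 36 hpf and 9026 to 11096 in DMSO at 60 hpf. With no scaling between arrays the stage change in DMSO was 0.53 for miR-126, 0.22 for miR-221 and 0.22 for miR-222, all upward, and the median of all tested miRNAs was 0.67. Scaling over all probes instead gave -0.38 for miR-126 (adjusted p = 2.12e-05) and -0.69 for both miR-221 and miR-222, with a median of -0.18. Measured against the median of all tested miRNAs, miR-221 and miR-222 stood lower at 60 hpf on Agilent in each of 20 settings, by 0.31 to 0.56 for miR-221 and by 0.36 to 0.57 for miR-222 in DMSO. A factor common to all miRNAs of an array cancels in this measure, apart from values at the floor. Settings that differ only in such a factor therefore had to agree closely, and the counts of settings are a description. On Exiqon they also stood below it in each of 17 settings, by 0.027 to 0.20 for miR-221 and by 0.027 to 0.39 for miR-222 in DMSO, and in TCDD by 0.069 to 0.36 and by 0.017 to 0.50. MiR-143 stood above that median in all 20 settings on Agilent and in all 17 on Exiqon, by 0.45 to 1.16 and by 0.92 to 1.27 in DMSO. The limits of floor and filter apply to its Agilent values here too. MiR-126 lay on both sides of the median on each platform, but mostly below it. It stood below in 18 of 20 settings in each treatment on Agilent, and in 16 (DMSO) and 14 (TCDD) of 17 on Exiqon. MiR-145 on Exiqon stood below the median in 1 of 17 settings in DMSO and in 11 of 17 in TCDD.

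**Figure D4:**
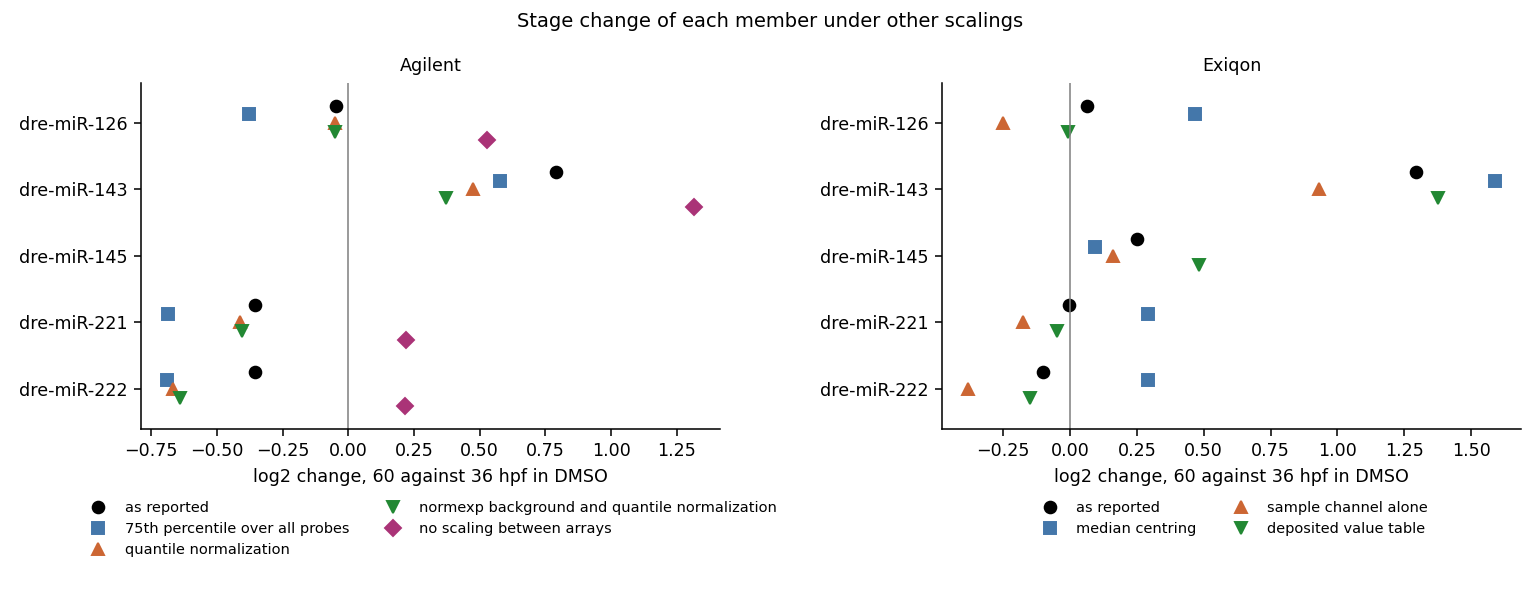
Log2 change from 36 to 60 hpf in DMSO (x axis) for each member as reported and under other scalings, on Agilent (left) and Exiqon (right). MiR-143 stays to the right of 0 in each setting drawn, from 0.37 to 1.59, while miR-126, miR-221 and miR-222 lie on both sides of 0. On Agilent the 36 hpf values of miR-143 lie at or near the floor.

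For the question of a TCDD effect 6 h after the start of exposure, the members gave differences near 0. At 36 hpf 0 of 4 passed on Agilent and 0 of 5 on Exiqon in limma's test, none had an unadjusted p under 0.05, and 0.746% and 0.448% of all tested miRNAs passed. Among all tested miRNAs 7 of 134 had an unadjusted p under 0.05 on Agilent and 18 of 223 on Exiqon. The differences on Agilent were 0.0065 ± 0.0517 for miR-126, -0.0096 ± 0.1391 for miR-143, -0.022 ± 0.046 for miR-221 and -0.034 ± 0.101 for miR-222. The value for miR-143 compares levels at or near the floor. On Exiqon they lay between -0.030 (miR-143) and 0.077 (miR-145), with adjusted p from 0.747 to 0.993. All DMSO arrays of 36 hpf on Exiqon carry a scan code of their own, so scan and treatment cannot be told apart in these differences. Only the miR-145 arrays did not overlap, with TCDD above DMSO, where 25.1% of all tested miRNAs lay apart. On Agilent the groups overlapped for the 4 tested members, and lay apart for 17.2% of all tested.

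At 60 hpf, 30 h after the start of exposure, again 0 of 4 members passed on Agilent and 0 of 5 on Exiqon. Among all tested miRNAs 4.48% passed on Agilent (3.73% higher and 0.746% lower) and 6.28% on Exiqon (4.93% and 1.35%). MiR-143 was the member with the largest difference on Agilent, where all 3 TCDD arrays (-4.10, -3.55 and -4.04) lay above all 3 DMSO arrays (-4.19, -4.64 and -4.30). The difference was 0.48 ± 0.14 (95% interval 0.17 to 0.79), with an unadjusted p of 0.00539 and an adjusted p of 0.103. This probe was tested only because all 3 TCDD arrays of 60 hpf detected it, and with no filter on dim probes its adjusted p was 0.315. Groups lay apart in this way for 11.9% of all tested miRNAs. Under the alternatives with a test its adjusted p ranged from 0.0708 to 0.982. On the first slide, which held replicate 1 of each group, the difference was 0.087, and on the second slide it was 0.68 (adjusted p = 0.108). The lowest DMSO value came from replicate 2, the array with 191 probes detected, and the highest TCDD value from replicate 2 as well. Without the former the difference was 0.35 (adjusted p = 0.327) and without the latter 0.31 (adjusted p = 0.276).

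Exiqon gave no such difference for miR-143 at 60 hpf. There it was 0.068 ± 0.051 (95% interval -0.043 to 0.18, adjusted p = 0.411), and the groups overlapped. The difference between the TCDD effects at 60 and 36 hpf was 0.49 ± 0.20 on Agilent (unadjusted p = 0.0301, adjusted p = 0.448) and 0.098 ± 0.071 on Exiqon (adjusted p = 0.549). The 36 hpf part of the Agilent value compares levels at or near the floor. The probe was also tested only through TCDD at 60 hpf, so this value shows no TCDD effect particular to 60 hpf. For miR-126 the 3 TCDD arrays lay above the 3 DMSO arrays on Exiqon at 60 hpf, by 0.060 ± 0.033 (adjusted p = 0.271). Groups lay apart in 1 direction or the other for 25.6% of all tested miRNAs. On Agilent its groups overlapped (0.021 ± 0.052, adjusted p = 0.951).

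The 3 Exiqon arrays of the later image analysis day were all TCDD arrays (replicate 3 at 36 hpf, and replicates 1 and 3 at 60 hpf), so day and treatment are partly confounded. With day as a block the differences at 60 hpf were 0.031 for miR-126, -0.027 for miR-143, -0.058 for miR-145, -0.033 for miR-221 and -0.0021 for miR-222 (adjusted p from 0.749 to 0.974). Over the first day alone, with 1 TCDD array of 60 hpf, they were 0.057, -0.046, 0.022, -0.0088 and 0.019 (adjusted p from 0.542 to 0.913). MiR-143 and miR-221 thus changed sign in both, miR-145 and miR-222 over the first day alone, and no member passed. The later day held no DMSO array and gives no treatment difference.

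The remaining members gave intervals around 0 at 60 hpf. On Agilent miR-221 differed by 0.021 ± 0.046 (95% interval -0.081 to 0.12) and miR-222 by -0.00076 ± 0.10104 (-0.22 to 0.22). On Exiqon miR-221 differed by 0.014 ± 0.039 (-0.071 to 0.099), miR-222 by -0.027 ± 0.036 (-0.10 to 0.051) and miR-145 by -0.051 ± 0.072 (-0.21 to 0.11). MiR-145 turned to 0.12 (adjusted p = 0.300) with spots flagged as empty also left out, and to 0.36 (adjusted p = 0.228) in the authors' deposited table. No difference between the TCDD effects at 60 and 36 hpf passed for any member on either platform in limma's test, where 1.49% of all tested miRNAs passed on Agilent and 2.69% on Exiqon (2.24% with the larger value at 60 hpf and 0.448% with the smaller). An unadjusted p under 0.05 was reached there by 1 member on Agilent, miR-143, and by 0 on Exiqon. Among all tested miRNAs 11 of 134 reached it on Agilent and 33 of 223 on Exiqon. The 36 hpf values of miR-143 on Agilent lay at or near the floor.

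A list of 20 other miRNAs associated with vessels was set beside the members. The list was chosen with earlier results of these data known, so its counts are a description and no test of vessel miRNAs. TCDD raised miRNAs of the miR-23, miR-24 and miR-27 clusters within it, those of miR-27 past the threshold on Exiqon alone. In mouse these clusters act on endothelial sprouting. At 60 hpf 3 of 16 tested rose on Agilent and 5 of 20 on Exiqon, and 0 fell, beside 3.73% and 4.93% higher among all tested miRNAs. On Agilent the rise of miR-23a was 0.65 ± 0.12 (1.57-fold, adjusted p = 0.00999). That of miR-24 was 0.55 ± 0.08 (adjusted p = 0.00490) and that of miR-23b 0.24 ± 0.06 (adjusted p = 0.0451). On Exiqon these rose by 0.34, 0.24 and 0.29, and miR-27a by 0.15 and miR-27b by 0.23, with adjusted p from 6.35e-05 to 0.0461. All of these calls were lost on Agilent with no scaling between arrays, and on Exiqon with median centring or the sample channel alone. The Agilent call for miR-23b was also lost on leaving out any one compared array other than replicate 2 of TCDD (adjusted p = 0.0730 to 0.194). The Exiqon call for miR-27a was lost without DMSO replicate 2 or 3, and without TCDD replicate 1 (adjusted p = 0.101 to 0.149), when image analysis day was a block (0.17, adjusted p = 0.0664) and over the first day alone (0.15, adjusted p = 0.162). The median of the list's differences was 0.047 on Agilent and 0.020 on Exiqon, beside 0.021 and 0.0027 over all tested miRNAs. At 36 hpf 0 of the list passed on either platform.

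Between stages the same list moved both ways. In DMSO 4 rose and 8 fell of 16 on Agilent, and 9 rose and 2 fell of 20 on Exiqon. Among all tested miRNAs 45.5% rose and 32.8% fell on Agilent, and 48% and 16.1% on Exiqon. The largest rises were those of miR-218b, by 1.25 ± 0.03 on Exiqon, and miR-218a, by 0.85 on Agilent and 0.89 on Exiqon. On Agilent miR-218b was detected on no array of 36 hpf, and at 60 hpf on 2 of 3 DMSO arrays and 3 of 3 TCDD arrays. In TCDD miR-218b was at least 3.41-fold higher at 60 hpf. The same figure in DMSO was 3.12-fold, but its mean includes the array without detection, so it is not a firm lower bound. The miR-218b probe entered the test only through its highest group, TCDD at 60 hpf. Its rise, counted among the 4, is therefore not independent of the filter. These miRNAs lie within slit genes, whose products guide axons and vessels. Members of the miR-17 cluster were among the largest falls, with miR-92a at -0.43 and miR-20a at -0.40 on Agilent, and miR-17a at -0.19 and miR-20a at -0.12 on Exiqon. In TCDD miR-218b rose by 1.39 on Exiqon and miR-218a by 0.90 on Agilent and 0.92 on Exiqon, and the falls were -0.49 for miR-20a and -0.40 for miR-92a on Agilent and -0.27 for miR-17a and -0.19 for miR-20a on Exiqon. The falls turned to rises with no scaling on Agilent (miR-20a also after quantile normalization) and with median centring on Exiqon.

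Markers of other cells were read beside these results. At 60 hpf TCDD lowered 1 of 2 red blood cell miRNAs on Agilent, miR-451 (-0.22, adjusted p = 0.0208), and 2 of 2 on Exiqon (-0.26 to -0.16). On Agilent miR-144 differed by 0.059 (adjusted p = 0.951). Among all tested miRNAs 0.746% were lower on Agilent and 1.35% on Exiqon. With no scaling on Agilent, and with median centring or the sample channel alone on Exiqon, 0 miRNAs passed at 60 hpf. The red blood cell calls were thus lost there. None of the striated muscle, leukocyte, nervous system or epithelial markers passed in a treatment comparison on either platform. Between stages the 3 nervous system markers rose on both platforms, by 1.61 to 2.08 on Agilent and by 1.41 to 2.49 on Exiqon in DMSO. Epithelial markers fell in 3 of 5 names on Agilent and 4 of 6 on Exiqon in DMSO (median -0.29 and -0.10), and 1 of 5 and 0 of 6 rose. Of the 2 red blood cell miRNAs, miR-451 rose by 0.58 on Agilent and 0.53 on Exiqon, and miR-144 rose by 0.47 on Exiqon. Striated muscle markers moved both ways, with 2 higher and 2 lower on each platform, and leukocyte markers gave 1 lower of 2 on Agilent and 2 higher of 6 on Exiqon. The leukocyte marker miR-142a-3p was called in opposite directions. It gave -0.29 on Agilent (adjusted p = 0.00697) and 0.20 on Exiqon (adjusted p = 0.000366) in DMSO. In DMSO 45.5% of all tested miRNAs rose and 32.8% fell on Agilent, and 48% and 16.1% on Exiqon. The medians over all tested miRNAs were 0.10 and 0.12. In TCDD 3 of 5 epithelial names fell on Agilent and 1 of 6 on Exiqon (median -0.19 and -0.037). Again 1 of 5 and 0 of 6 rose, and 31.3% and 16.6% of all tested miRNAs fell. Scan and stage cannot be told apart in DMSO on Exiqon. Of the DMSO stage calls 95.3% were higher with no scaling on Agilent and 92.5% with median centring on Exiqon. With so few names per cell type, the marker counts are a description. The part of these markers in the members' stage changes was not tested.

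The names whose values were most alike to a member's over the 12 arrays of a platform are given as a description, since all share the stage difference and the scaling. For miR-143 they were miR-738, miR-217 and miR-138 on Agilent (r = 0.963, 0.957 and 0.952 among 133 names) and miR-218b, miR-9* and miR-138 on Exiqon (r = 0.998, 0.998 and 0.997 among all other tested names). MiR-221 was most like miR-430a, miR-430j and miR-430c on Agilent (r = 0.980, 0.978 and 0.974), which belong to the family that clears maternal messages in early zebrafish embryos. On Exiqon its closest names reached only 0.681 (miR-301b), 0.619 (miR-375) and 0.608 (miR-130a). For miR-222 they were miR-20b, miR-203b* and miR-19d on Agilent (r = 0.945, 0.944 and 0.940) and miR-429, miR-20b and miR-18c on Exiqon (0.927, 0.915 and 0.908). MiR-126 resembled miR-93, miR-205 and miR-10c on Agilent (r = 0.758, 0.750 and 0.733) and miR-24, miR-30e and miR-193a on Exiqon (0.914, 0.911 and 0.901). The names closest to miR-145 on Exiqon were miR-29b, miR-16b and miR-16a (0.875, 0.824 and 0.819).

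Between members the pairs differed by platform. MiR-221 and miR-222 correlated at r = 0.858 over the 12 Agilent arrays, and at 0.344 once each value was taken as its distance from the group mean. On Exiqon the same pair gave -0.233 and -0.447. MiR-143 and miR-145, which could be paired on Exiqon alone, gave 0.721 and, around the group means, 0.154.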

How the data were processed

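The members, the marker lists and the list of vessel-associated miRNAs were chosen with earlier results of these data known. The Agilent intensities deposited by the authors are background-subtracted processed signals from Feature Extraction 9.5, per the file headers, with no scaling between arrays, and the deposited values per array equal them. The Exiqon intensities deposited by the authors are spot and local background means of 2 channels, written by software version 8.0.1 per the file headers. Hy3 marks the sample and Hy5 a reference pool, per the labels. The Exiqon value file deposited by the authors appears to hold log2 ratios of unstated normalization. Set against the ratios computed here, its columns had slopes of 1.13 to 1.22 (r = 0.857 to 0.972) and medians of -0.13 to 0.26.

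Outlier spots on Agilent (3.05% to 6.39%) were dropped. The remaining signals were divided by a 75th percentile taken, in each array, from 186 probes that all 12 arrays detected, floored at 0.0273 and averaged as log2. Exiqon spots flagged by the program (4.51% to 15.7%) were left out except those flagged as empty, background was corrected by normexp (offset 50), and ratios were loess-normalized. Detection on Exiqon required a sample signal 2 SDs over background, in 0.5 of the spots or more. The brightest probe stood for a miRNA. Testing required its detection on each of the 3 arrays in 1 group or more. Keeping spots flagged as empty, and reading Agilent detection over all spots, were settled after results under both versions had been seen, to follow an earlier processing of these files. The other version of each is among the alternatives.

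For each platform a limma model (limma 3.58.1 in R 4.3.3, files read with version 1.17.8 of data.table) with 4 group means was fitted to 12 arrays and tested on simulated data first. All tests were two-sided. With 3 arrays a group, exact permutation p-values start at 0.1, so none was used. The text names the members, miR-126*, the listed vessel-associated miRNAs that passed with TCDD, the 2 largest rises and 2 largest falls of that list between stages, and the 3 most similar names per member. Arrays of different stages correlated at -0.612 to -0.507 on Exiqon (0.894 to 0.990 within groups). Because the dyes are stated in the labels, ratios were not turned. Deviations of same-numbered replicates correlated above 0.1 in 11 of 18 pairs on Agilent and 4 of 18 on Exiqon. All 3 pairs of DMSO and TCDD at 36 hpf on Agilent did so (r = 0.216 to 0.270), so the numbers may pair those arrays, and no other pair of groups on either platform had all 3 above 0.1. Over all 18 Agilent pairs r ran from -0.53 to 0.61, and same-numbered arrays also shared a slide, so a pairing was not shown. The model has no block, and a replicate block changed no call of a member. All DMSO arrays of 36 hpf on Exiqon carry a code of their own in the image names of the headers. It was read as a scan, which the labels do not state, and scan and group cannot be told apart there. The alternatives were other scalings, background corrections, filters, probe rules, blocks, single slides or image analysis days, the deposited tables and leaving out each array. The setting with the sample channel alone used log2 sample intensities, quantile-normalized between arrays, without the reference.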

Additional observations from a re-analysis of the deposited data

Results flagged for a closer look

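The TCDD effect differed between 60 and 36 hpf on Exiqon for 3 vessel-associated miRNAs outside the 5 members, by the interaction term of the limma model. The DMSO arrays of 36 hpf, with a scan code of their own, enter this term, so scan and the difference cannot be told apart. On Agilent 0 of 16 tested miRNAs of the list passed in this comparison. It was larger at 60 hpf by 0.28 ± 0.05 for miR-23a and by 0.25 ± 0.05 for miR-23b (adjusted p = 0.0151 for both), and by 0.22 ± 0.05 for miR-24 (adjusted p = 0.0431). These differences did not pass with median centring or with the sample channel alone, and miR-24 was also not past the threshold in the authors' deposited table (0.24, adjusted p = 0.0738). On leaving out single arrays, miR-23b was lost without replicate 1 or 3 of DMSO at 36 hpf, replicate 1 of TCDD at 36 hpf or replicate 1 of DMSO at 60 hpf (adjusted p = 0.0548 to 0.0688). MiR-24 was lost without any one array other than replicates 1 and 2 of TCDD at 60 hpf (adjusted p = 0.0598 to 0.136).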

How the results depend on the processing

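With TCDD at 36 or 60 hpf, and in the difference between these effects, 0 members passed under each alternative with a test, single arrays left out included. Agilent counts of all miRNAs past the threshold moved as follows. At 36 hpf 1 became 0 with the 75th percentile over all probes, with quantile normalization (also after normexp), with the mean of all detected probes, with no scaling, on the second slide and over only the compared groups. At 60 hpf 6 became 3 with the percentile over all probes, with no filter and on the second slide, 0 with no scaling and 2 over only the compared groups. For the difference of effects 2 became 1 with quantile normalization (also after normexp), and 0 with the percentile over all probes, the mean of all detected probes, the replicate block, no scaling, detection over spots not flagged as outliers and the second slide. On Exiqon 0 passed at 36 and 60 hpf and in the difference with median centring or the sample channel alone, from 1, 14 and 6. Over only the compared groups 3 passed at 36 hpf and 9 at 60 hpf, and 2 passed in the difference when the deposited log ratios were used. With the sample channel alone 79 miRNAs and 1 member passed between stages in DMSO, and 93 miRNAs in TCDD.

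Leaving out 1 array gave 0 to 3 miRNAs at 36 hpf, 3 to 5 at 60 hpf and 0 to 2 in the difference on Agilent, and 1 to 2, 11 to 50 and 1 to 16 on Exiqon. Between stages 100 to 110 passed in DMSO and 104 to 108 in TCDD on Agilent, and 136 to 143 and 134 to 146 on Exiqon. The members past the threshold there numbered 3 in DMSO and 2 to 3 in TCDD on Agilent, and 2 to 3 in each on Exiqon. The replicate block left the members' counts as they were and gave 12 miRNAs at 60 hpf and 5 in the difference on Exiqon. It moved no call of a member. The image analysis day as a block gave 10 miRNAs at 60 hpf and 9 in the difference.

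These signs turned. With no scaling on Agilent the stage changes in DMSO and TCDD became 0.53 and 0.49 for miR-126, 0.22 and 0.21 for miR-221, 0.22 and 0.20 for miR-222, 0.14 and 0.13 for miR-92a, and 0.18 and 0.029 for miR-20a. MiR-20a became 0.016 and 0.021 with quantile normalization, and 0.012 and 0.023 after normexp. With median centring on Exiqon miR-221 became 0.29 in DMSO, miR-222 0.29 and 0.43, miR-20a 0.30 and 0.41, and miR-17a 0.24 and 0.34. With the sample channel alone the TCDD effect at 60 hpf became -0.050 for miR-24, -0.16 for miR-27a and -0.049 for miR-27b, the difference of effects -0.081 for miR-24, and the stage change in TCDD -0.41 for miR-126. In the authors' deposited log ratios the stage change of miR-126* in TCDD became 0.21. Of values past the threshold in neither fit, 48 of 402 on Agilent changed sign, at sizes up to 0.092, and 69 of 487 on Exiqon, at sizes up to 0.50. The share of stage calls in DMSO that were higher was 58.1% on Agilent, 40.5% with the percentile over all probes and 95.3% with no scaling, and 74.8% on Exiqon and 92.5% with median centring. The causes were not tested. Signal near background limits miR-143 and miR-145 on Agilent and miR-145 on Exiqon.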
